A study of Mus musculus with 4 samples.

Results

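The 6 genes described here encode mouse Fc gamma receptors, which bind the constant part of IgG, and adaptor chains and a kinase that carry receptor signals into the cell. Fcgr1 and Fcgr3 encode activating receptors, Fcer1g and Tyrobp encode adaptor chains with an immunoreceptor tyrosine-based activation motif (ITAM), Syk encodes the kinase that binds phosphorylated ITAMs, and Fcgr2b encodes the inhibitory receptor. They were taken by name from 12394 genes measured on the arrays, and all their 11 probe sets are reported: 1 each for Fcgr1, Fcgr3, Fcer1g and Tyrobp, 3 for Syk and 4 for Fcgr2b.

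Immune complexes of antibody and antigen crosslink Fc gamma receptors on macrophages, monocytes and other leukocytes. Activating receptors depend on the common gamma chain, the product of Fcer1g, whose ITAM is phosphorylated by Src-family kinases and then recruits Syk. Fcgr2b carries an inhibitory motif (ITIM) and recruits a lipid phosphatase that dampens the same signal, so the balance of activating and inhibitory receptors sets how strongly a cell answers an immune complex, a known determinant of injury in glomerulonephritis.

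RNA of whole kidney from male C57BL/6 mice, 17 weeks old by their labels, was measured on 4 Affymetrix arrays, 1 for each of 4 groups of 6 mice. Saline+Water mice had intraperitoneal 0.15 M NaCl and drank water, and Saline+Captopril mice had the same injections with captopril, an angiotensin converting enzyme inhibitor, at 100 mg/kg/day in the drinking water. GN+Water and GN+Captopril mice had glomerulonephritis (GN) induced by 10 mg of horse spleen apoferritin on 5 days a week with 100 µg of Salmonella minnesota lipopolysaccharide as adjuvant 3 times a week, without or with that captopril dose. Injections began at about 8 weeks of age and ran for 6 weeks, with kidneys removed at 9 weeks. The comparison asks whether converting enzyme inhibition lessens interstitial injury. Whether each array holds a pool or a single mouse is not stated in the labels. The repeated lipopolysaccharide was given to GN groups only, so its effect and that of the immune complexes cannot be told apart here.

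No difference has a replicate check with 1 array per group, and no p-value or error between animals is given. Values are log2 probe set values, a difference is 1 array minus another, and a gene was counted as higher or lower when it was at least 1.5-fold apart (0.58 on the log2 scale). Each count of the 6 genes is set beside the share of 8207 genes that passed an expression filter and were as far apart in that direction. Defining kidney genes were present on every array, with the thick limb gene Umod between 13.22 and 13.52 and the proximal tubule glucose transporter gene Slc5a2 between 11.62 and 12.19. Of the arrays, 2 stood apart. On the GN+Water-labelled array, Xist was at 8.97 against 5.02 to 5.21 elsewhere and the Y-linked Eif2s3y at 3.43 against 8.02 to 8.29, with Uty at 4.27 against 6.30 to 6.34 and Kdm5d at 3.52 against 4.63 to 5.69, which goes against its male label. The median of 18 spike-in probe sets was 10.8 for Saline+Water, against 7.46 to 7.89 for the others. The comparison of GN+Captopril with Saline+Captopril uses neither of these arrays and is given first.

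In captopril-treated mice, the activating receptor and adaptor genes were about as far above saline as the most changed 1% of genes, while Syk and Fcgr2b were not. Tyrobp was 2.20-fold, Fcgr3 2.10-fold, Fcer1g 1.96-fold and Fcgr1 1.74-fold higher on GN+Captopril than on Saline+Captopril. Of the 6 genes, 4 were at least 1.5-fold higher, where 1.85% of all tested genes were, and 0 were lower, where 0.207% of tested genes were. The median difference of the 6 was 0.89, against 0.00 over all tested genes. In water-drinking mice the same 4 genes were higher on the GN+Water-labelled array than on Saline+Water, 4 of 6 against 19.6% of tested genes; 0 were lower, against 15.3%. There the median of the 6 was 1.32, again against 0.00. The 2 pairs share no array, and the spread of all genes was wider in the water pair.

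**Figure D1:**
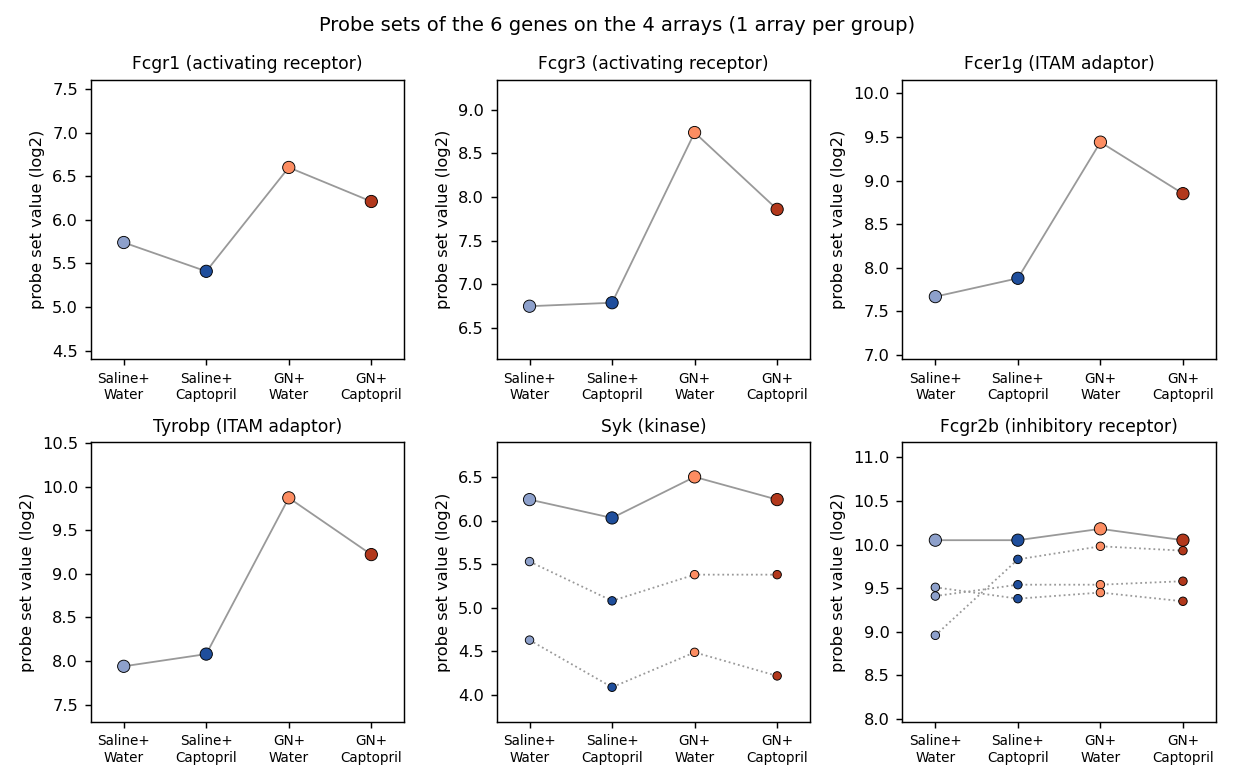
Log2 value of every probe set of the 6 genes on the 4 arrays, 1 point per array; large points joined by a solid line are the probe set that represents the gene, small points on dotted lines are its other probe sets, and each panel spans 3.2 log2 units. For Fcgr1, Fcgr3, Fcer1g and Tyrobp both GN arrays lie above both saline arrays, while Fcgr2b is flat except for 1 probe set that is low on Saline+Water.

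Fcgr3 encodes the low-affinity activating receptor CD16 of macrophages, natural killer cells and neutrophils. Its probe set was at 6.75 on Saline+Water, 6.79 on Saline+Captopril, 8.74 on the GN+Water-labelled array and 7.86 on GN+Captopril. Both saline arrays were low and nearly equal, and the 2 GN arrays lay well above them, the one without captopril highest. The GN difference was 2.0 (3.99-fold) on water and 1.07 (2.10-fold) on captopril. On water 160 of 8207 tested genes had a larger rise, and on captopril 50 did.

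Fcgr1 encodes the high-affinity activating receptor CD64, a monocyte and macrophage receptor known to be induced by interferon gamma. It was at 5.74 on Saline+Water, 5.41 on Saline+Captopril, 6.60 on the GN+Water-labelled array and 6.21 on GN+Captopril. Both GN arrays were again above both saline arrays, although its mean of 5.99 lay under the expression filter of 6.27, as did that of Syk at 6.25. The GN difference was nearly equal in the 2 pairs, 0.86 (1.82-fold) on water and 0.80 (1.74-fold) on captopril. Only 82 tested genes had a larger difference in the captopril pair, but 1033 had in the water pair.

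Sequence before an annotated start is shown for Fcgr1, Fcgr3 and the adaptor Fcer1g, which were higher, and for Fcgr2b, which was not, because Fcgr1 is a known target of the myeloid factor PU.1. RefSeq windows (GRCm38.p6) of 250 bases before the annotated start were held for 5 of the 6 genes, all but Tyrobp, and were searched for 1 motif, the core of the PU.1 site, GAGGAA on either strand. The 150 bases before the start follow, 5′ to 3′ on the gene's strand, with matches in capitals; they lie at chr3:96293970-96294119 for Fcgr1, chr1:171059395-171059544 for the second listed start of Fcgr3, chr1:171234350-171234499 for Fcer1g and chr1:170976072-170976221 for Fcgr2b, all on the minus strand.
Fcgr1: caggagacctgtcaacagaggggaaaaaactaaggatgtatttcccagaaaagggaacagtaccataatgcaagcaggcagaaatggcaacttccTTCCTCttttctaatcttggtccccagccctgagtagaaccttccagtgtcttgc
Fcgr3: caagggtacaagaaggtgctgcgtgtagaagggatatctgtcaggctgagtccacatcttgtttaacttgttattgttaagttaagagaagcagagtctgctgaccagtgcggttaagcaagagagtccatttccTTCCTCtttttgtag
Fcer1g: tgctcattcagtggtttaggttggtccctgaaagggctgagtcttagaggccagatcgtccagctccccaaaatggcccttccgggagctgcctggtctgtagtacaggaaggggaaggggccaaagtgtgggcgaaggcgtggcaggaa
Fcgr2b: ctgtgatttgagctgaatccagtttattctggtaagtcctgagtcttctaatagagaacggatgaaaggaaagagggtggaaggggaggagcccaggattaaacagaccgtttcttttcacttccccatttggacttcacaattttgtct

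Fcgr1 held a PU.1 core that begins 55 bases before its start. Fcgr3 held a PU.1 core 15 bases before the start shown and 6 bases before its other listed start. Both of these windows lie inside the annotated span of Fcgr3, which reaches upstream to chr1:171065915. Whether they act as a promoter was not tested. The longest run of bases that 2 of these 5 genes shared on the same strand was the 14-base TTCCTTCCTCTTTT of Fcgr1 and Fcgr3, which includes the core and begins 59 bases before the start of Fcgr1 and 19 before the start of Fcgr3 shown. It occurs on either strand in 3 of 32851 windows, which include the Fcgr1 and Fcgr3 windows it was found in. Because the run was picked as the longest shared one, its rarity is not evidence of a shared element. Fcer1g and Fcgr2b held no match, and of 2 windows of Syk the one at its second start held a PU.1 core. Of all windows of this length, 23.3% held the PU.1 core, so these matches describe the sequences and are not evidence of binding.

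Fcer1g encodes the common gamma chain, which Fcgr1 and Fcgr3 proteins need for signalling and for stable display at the cell surface. It was at 7.67 on Saline+Water, 7.88 on Saline+Captopril, 9.44 on the GN+Water-labelled array and 8.85 on GN+Captopril. Saline arrays were low and GN arrays high, in the same order as for Fcgr3. The GN difference was 1.77 (3.41-fold) on water and 0.97 (1.96-fold) on captopril, with 244 and 62 tested genes above it.

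Tyrobp encodes DAP12, an ITAM adaptor that pairs with receptors of the TREM and other families on myeloid and natural killer cells. Its values were 7.94 on Saline+Water, 8.08 on Saline+Captopril, 9.87 on the GN+Water-labelled array and 9.22 on GN+Captopril. The order of the arrays was that of Fcer1g and Fcgr3, and the GN difference of 1.93 (3.81-fold) on water and 1.14 (2.20-fold) on captopril was the largest of the 6 genes in the captopril pair. There 44 tested genes had a larger one, and 179 had in the water pair.

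Syk, the kinase downstream of both adaptors, differed little. Its brightest probe set was at 6.24 on Saline+Water, 6.03 on Saline+Captopril, 6.50 on the GN+Water-labelled array and 6.24 on GN+Captopril, so that the lowest GN array and the highest saline array were level. The GN difference was 0.27 (1.20-fold) on water and 0.21 (1.16-fold) on captopril, and 33.2% and 10.2% of tested genes had a larger one. The other 2 probe sets gave −0.14 and 0.31, and −0.14 and 0.13; the last of them was at or under the background limit of negative controls on every array but GN+Water. Its low signal limits what can be said of Syk.

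Fcgr2b, the inhibitory receptor of B cells, myeloid cells and some endothelium, did not share the GN difference of the activating genes. Its representing probe set was at 10.05 on Saline+Water, 10.05 on Saline+Captopril, 10.18 on the GN+Water-labelled array and 10.05 on GN+Captopril, a range of levels narrower than that of any other of the 6 genes. The GN difference was 0.13 on water and 0.00 on captopril, and 41.4% and 58.1% of tested genes had a higher one. In the captopril pair all 4 probe sets lay between −0.02 and 0.10. In the water pair 3 lay between −0.06 and 0.13, but 1451941_a_at gave 1.02 (2.03-fold), since its Saline+Water level was 8.96 while the remaining 3 arrays lay between 9.83 and 9.98. Against Saline+Captopril the same probe set was 0.15 higher on the GN+Water-labelled array. The disagreement is thus on the array with the high spike-ins, and its cause was not tested. Mouse Fcgr2b and Fcgr3 are close in sequence over their extracellular part, and whether a probe set reads both was not tested.

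Levels of different probe sets are not comparable, so activating and inhibitory genes were compared by their differences between the same 2 arrays. The mean GN difference of Fcgr1, Fcgr3, Fcer1g and Tyrobp exceeded that of Fcgr2b by 1.0 on captopril, where the 4 gave a mean of 0.99 and a range of 0.80 to 1.14. With each of the 4 probe sets of Fcgr2b in turn the excess was between 0.90 and 1.02. On water it was 1.51, from a mean of 1.64 and a range of 0.86 to 2.0; it was 0.62 with 1451941_a_at and between 1.51 and 1.70 with the others. With the receptors Fcgr1 and Fcgr3 alone it was 1.30 on water and 0.94 on captopril. In every one of these settings the mean difference of the activating genes between GN and saline arrays was larger than that of the inhibitory receptor. This holds for the mean and not for each gene: on water Fcgr1 differed by 0.86 and 1451941_a_at of Fcgr2b by 1.02. In bulk kidney RNA, more cells of a type and more RNA per cell cannot be told apart.

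**Figure D2:**
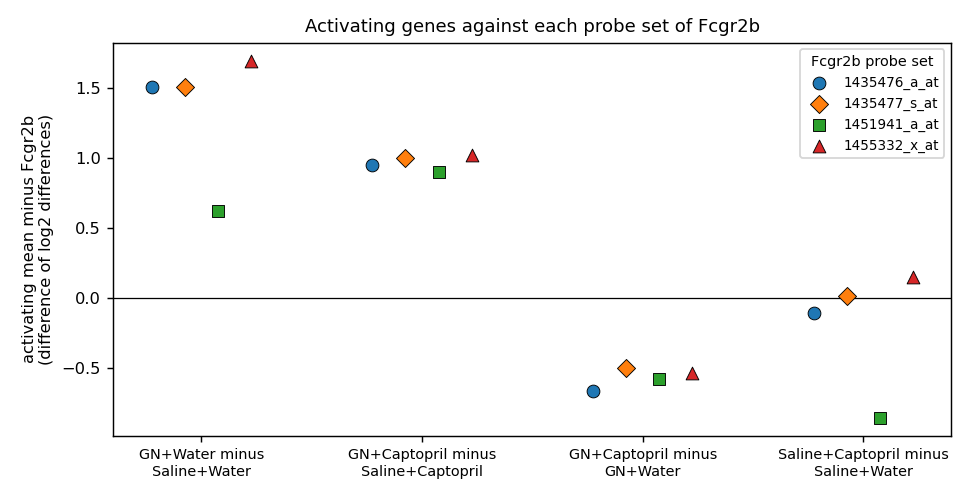
Mean log2 difference of Fcgr1, Fcgr3, Fcer1g and Tyrobp minus the log2 difference of Fcgr2b, for each of the 4 probe sets of Fcgr2b (symbols) in each of the 4 comparisons (x axis). In GN+Captopril minus Saline+Captopril the 4 points lie between 0.90 and 1.02, and 1451941_a_at stands apart in the 2 comparisons that use Saline+Water.

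The activating genes were lower on GN+Captopril than on the GN+Water-labelled array. Fcgr3 was 1.85-fold, Tyrobp 1.57-fold, Fcer1g 1.51-fold, Fcgr1 1.32-fold, Syk 1.20-fold and Fcgr2b 1.09-fold lower on GN+Captopril. Of the 6 genes, 3 were at least 1.5-fold lower, where 4.52% of tested genes were, and 0 were higher, where 3.70% were. The median of the 6 was −0.49, against 0.00 over all tested genes, and the mean of the 4 activating genes was 0.50 below the difference of Fcgr2b (−0.67 to −0.50 over its probe sets). This comparison rests on the array whose sex-linked transcripts go against its label and cannot be made without it, and whether that sets these differences was not tested. It shares that array with the GN comparison on water.

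In saline mice these genes differed little between Saline+Captopril and Saline+Water, the latter being the array with the high spike-ins. Relative to Saline+Water, Saline+Captopril was 0.21 higher for Fcer1g, 0.14 for Tyrobp and 0.04 for Fcgr3, and it was lower by a difference of −0.34 for Fcgr1 and −0.21 for Syk, with 0.00 for Fcgr2b. None of the 6 was at least 1.5-fold higher (0 against 15.6% of tested genes) or lower (0 against 10.2%), and their median was 0.02 against 0.01. For 6 genes, counts of 0 are ones that these shares could also give. The exception among probe sets was 1451941_a_at of Fcgr2b, which was 0.87 higher (1.83-fold).

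**Figure D3:**
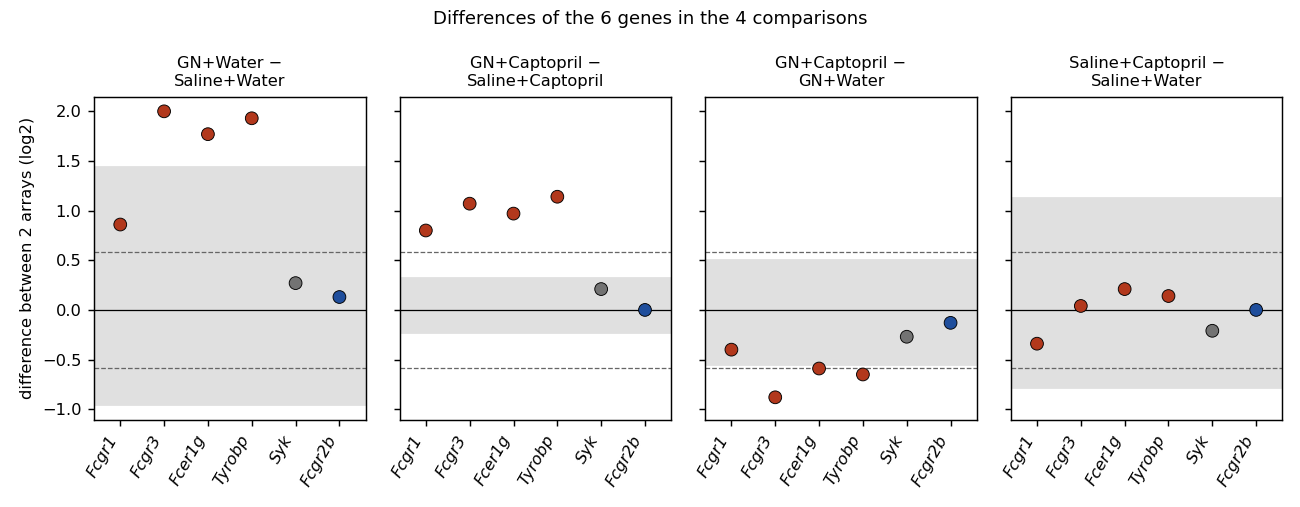
Log2 difference of each of the 6 genes in the 4 comparisons, with the activating receptors and adaptors in red, Syk in grey and Fcgr2b in blue; the grey band holds all tested genes from the 5th to the 95th percentile, and dashed lines mark 1.5-fold. In GN+Captopril minus Saline+Captopril the 4 red points lie between 0.80 and 1.14, above a band that ends at 0.32, while in Saline+Captopril minus Saline+Water all 6 points lie inside the band.

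The GN difference was smaller on captopril than on water by 0.93 for Fcgr3, 0.80 for Fcer1g and 0.79 for Tyrobp, and by 0.06 for Fcgr1 and for Syk and 0.13 for Fcgr2b. Other probe sets of the last 2 genes gave unlike values. The GN difference on captopril minus that on water was −0.93 for 1451941_a_at of Fcgr2b and −0.08 and 0.04 for its remaining probe sets. For the other probe sets of Syk it was 0.45 and 0.27. When both GN arrays were set against Saline+Captopril, the GN difference on water was 1.95 for Fcgr3, 1.56 for Fcer1g, 1.79 for Tyrobp and 1.20 for Fcgr1, so the first 3 changed little with the baseline and Fcgr1 grew. In that setting 4 of the 6 were at least 1.5-fold higher against 6.31% of tested genes.

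Fc gamma receptors are carried mainly by leukocytes, and most macrophage and monocyte markers and the pan-leukocyte genes moved with the activating genes. Of 13 macrophage and monocyte markers past the filter, 10 were at least 1.5-fold higher on GN+Captopril than on Saline+Captopril and 0 lower, against 1.85% and 0.207% of tested genes, with a median of 1.03, close to the mean of 0.99 for the 4 activating genes. In the water pair 12 of 13 were higher and 0 lower, against 19.6% and 15.3% of tested genes, with a median of 1.76 beside 1.64. On GN+Captopril against the GN+Water-labelled array 7 were lower and 0 higher, against 4.52% and 3.70%, with a median of −0.70 beside −0.63. Of the 13, 2 (Mrc1 and Aif1, named after their values were seen) passed the filter only through the GN arrays. The summed level of all 14 measured markers was 11.63 and 11.66 (log2) on the saline arrays, 13.84 on the GN+Water-labelled array and 13.16 on GN+Captopril. Cd163, a marker of resident and alternatively activated macrophages, was near background on all 4 arrays. The part of these cells in the differences of the 6 genes was not tested.

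Among the macrophage markers Lyz2, the lysozyme gene, was 9.17-fold higher on captopril and 14.5-fold on water, Ms4a7 3.68-fold and 16.1-fold, and Cd52 2.75-fold and 4.93-fold. At the other end Csf1r, the receptor for macrophage colony stimulating factor, was 1.26-fold and 1.58-fold higher, the monocyte chemokine receptor gene Ccr2 1.13-fold and 1.53-fold, and the scavenger receptor gene Msr1 1.08-fold and 1.01-fold. The activating Fc receptor genes thus lay inside the range of these markers in both pairs. All 6 pan-leukocyte genes were at least 1.5-fold higher in both pairs, against 1.85% and 19.6% of tested genes, with medians of 0.95 on captopril and 1.78 on water, among them the leukocyte phosphatase gene Ptprc at 1.95-fold and 11.0-fold; the Ptprc level was 5.98 for Saline+Water and 7.71 for Saline+Captopril, and against the latter it was 3.29-fold higher on the GN+Water-labelled array.

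Other leukocytes that carry Fc receptors were measured less well, and few of their markers passed the filter. These lists are therefore given over all measured genes, on captopril and then on water. For scale, the captopril pair had 1.65% of the 12394 genes past the 1.5-fold mark upward and 0.274% downward. In the water pair those shares were 15.1% upward and 18.0% downward. Neutrophil markers, of which 1 of 11 passed, had medians of 0.00 and −0.26, with 2 and 0 at least 1.5-fold higher and 0 and 4 lower; their summed level was 9.47 for Saline+Water and 8.85 to 9.01 for the others. The 7 B cell markers had medians of 0.10 and −0.33, with 0 and 2 higher and 0 and 2 lower, Cd79b at 0.54 and 0.67 and Pax5 at −0.49 and −1.03 among them. The 6 natural killer cell markers had medians of 0.17 and 0.16, with Nkg7 the 1 gene higher in each pair, at 0.83 and 0.76, while Prf1 was at −0.16 and −0.43. The 7 mast cell markers had medians of −0.07 and −0.10; Hdc was at 8.44 on the GN+Water-labelled array and 5.32 to 6.44 elsewhere, and Mcpt4 at −0.09 and −0.53. The 6 T cell markers had medians of 0.28 and 0.13, with 2 and 1 higher, and the 5 dendritic cell markers 0.00 and 0.20, with 0 at least 1.5-fold apart. Cd79b, Nkg7 and Hdc, the 1 gene of each list past the filter, had a saline mean under it and passed through the GN arrays; Pax5, Prf1 and Mcpt4 were named after their values were seen. Tubule and podocyte markers, 11 of 11 past the filter, had medians of −0.02 and −0.18. Neighbouring tissues differed unevenly. The 7 measured adipose markers had medians of 0.23 and −0.22, with 3 and 3 at least 1.5-fold higher and 0 and 2 lower. Among them Adipoq was 2.22-fold and 4.05-fold higher, while Cd36 differed by −0.04 and −0.84. The 6 measured adrenal markers had medians of 0.10 and −0.33, with 2 and 0 at least 1.5-fold higher and 0 and 2 lower. Hsd3b1 was at 7.39 on GN+Captopril and 5.83 to 6.01 elsewhere, while Cyp21a1 differed by −0.06 and −1.36.

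Beyond the 6 genes, 107 genes of Fc receptor and ITAM signalling were examined in 7 lists; 87 had a probe set with a single symbol and 41 of these passed the filter. On captopril 6 of the 41 were at least 1.5-fold higher and 0 lower in GN, against 1.85% and 0.207% of tested genes. On water 15 were higher and 7 lower, against 19.6% and 15.3%, and with Saline+Captopril as baseline, a choice made after seeing the data, 14 were higher and 1 lower, against 6.31% and 3.03%. On GN+Captopril relative to the GN+Water-labelled array 2 were higher and 6 lower, against 3.70% and 4.52%. The filter used the mean of all 4 arrays, which favours genes that are high in 1 group: 4 of the 41, among them Fcgr4, Cd72 and Sh3bp2, had a saline mean under it, and 0 had a GN mean under it. Over all 87 genes without a filter, 14 were higher and 0 lower on captopril, where 1.65% and 0.274% of all 12394 genes were.

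Among other Fc receptors, Fcgr4, the remaining activating IgG receptor of the mouse, behaved as Fcgr3 did. It was at 6.01 on Saline+Water, 6.51 on Saline+Captopril, 7.92 on the GN+Water-labelled array and 7.38 on GN+Captopril, 3.76-fold higher in GN on water and 1.83-fold on captopril. Fcgrt, the neonatal Fc receptor gene that salvages IgG and albumin and is not a leukocyte gene alone, stayed between 10.87 and 11.02. Pigr, which carries polymeric antibody across epithelium, was at 8.32 on the GN+Water-labelled array and between 9.75 and 10.70 on the others. Trim21, the cytosolic antibody receptor gene, was 3.04-fold higher in GN on water and 1.06-fold on captopril, with its lowest level, 5.92, on Saline+Water. Over the 4 genes of this list past the filter the median was 0.07 on captopril and 0.73 on water.

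Receptors and integrins of the same cells gave a mixed picture. All 3 complement receptor and phagocytic integrin genes past the filter were at least 1.5-fold higher in both pairs, against 1.85% of tested genes on captopril and 19.6% on water. Itgb2, the beta chain shared by leukocyte integrins, was 2.47-fold higher on captopril and 3.36-fold on water. The anaphylatoxin receptor gene C3ar1 was at 1.55-fold and 3.44-fold, and Cd93 at 1.54-fold and 2.16-fold. Over all 8 measured genes of this list 3 were higher on captopril and 4 on water, against 1.65% and 15.1% of all genes. Those under the filter, Itgam, Itgax, Cr2, C5ar1 and Vsig4, lay between −0.15 and 0.43 on captopril. Of 14 measured genes listed as receptors that use Fcer1g or Tyrobp only 2 passed. They were Clec7a, the beta-glucan receptor gene, at 1.45-fold and 1.66-fold, and Cd300c2 at 1.47-fold and 1.45-fold. Clec7a was listed there although its receptor carries an ITAM-like motif of its own. Over all 14 measured genes of this list 2 were higher on captopril and 5 on water, against 1.65% and 15.1% of all genes, and 0 were lower in either pair. Among ITIM-bearing receptors 3 of 12 passed and 0 reached 1.5-fold on captopril, a count that 1.85% of tested genes would also give. There Cd72 was 1.48-fold and Sirpa 1.22-fold higher and Ceacam1 differed by 0.00. Over all 12 measured genes of that list 3 were higher on captopril, against 1.65% of all genes. On water Ceacam1 was 2.79-fold, Cd72 2.45-fold and Sirpa 1.10-fold higher.

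Among signalling genes below the receptors, 0 of 7 Src-family and Tec kinase genes were at least 1.5-fold apart on captopril, a count that the shares over all tested genes (1.85% higher and 0.207% lower) would also give. They had a median of −0.02, with Fyn at 0.20, Csk at 0.06, Yes1 at −0.02, Src and Tec at −0.04 and Zap70 at −0.22. Of 15 adaptor, lipase and exchange factor genes 2 were higher on captopril, against that 1.85%, with a median of 0.10. Those 2 were Rac2, the leukocyte GTPase of the phagocyte oxidase, at 1.81-fold (1.97-fold on water), and Sh3bp2, a Syk-binding adaptor gene named after its values were seen, at 2.24-fold. Sh3bp2 was at 7.26 on GN+Captopril and 6.01 to 6.32 on the other 3 arrays, so it did not follow GN. Fyb was 1.47-fold higher on captopril and 2.20-fold on water. Vav3 was 5.16-fold higher on water and 1.04-fold lower on captopril, and Prkcd, Gab2 and Vav2 were 2.31-fold, 2.11-fold and 2.09-fold lower on water but 1.06-fold, 1.04-fold and 1.05-fold higher on captopril. Between the saline arrays these 4 also differed, Vav3 by 1.59 and Prkcd, Gab2 and Vav2 by −1.05 to −1.11.

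The list of inhibitory phosphatases and Dok adaptors, not all of them known partners of Fcgr2b, gave a median of 0.00 on captopril. Of its genes 0 of 7 were at least 1.5-fold apart, again a count that the shares over all tested genes would give. Inpp5d, the SHIP phosphatase that binds the Fcgr2b ITIM, was at 6.58 on Saline+Captopril and 6.41 on GN+Captopril, a difference of −0.16; on Saline+Water it was at 7.30 and on the GN+Water-labelled array at 6.59. Ptpn6 was at 0.17 and Inppl1 at 0.04, Pag1 and Ptpn11 at 0.00, and Dok3 at −0.11. On water Pag1 was 2.40-fold higher and Inpp5d 1.63-fold lower, and against Saline+Captopril they were 1.19-fold and 1.01-fold higher.

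**Figure D4:**
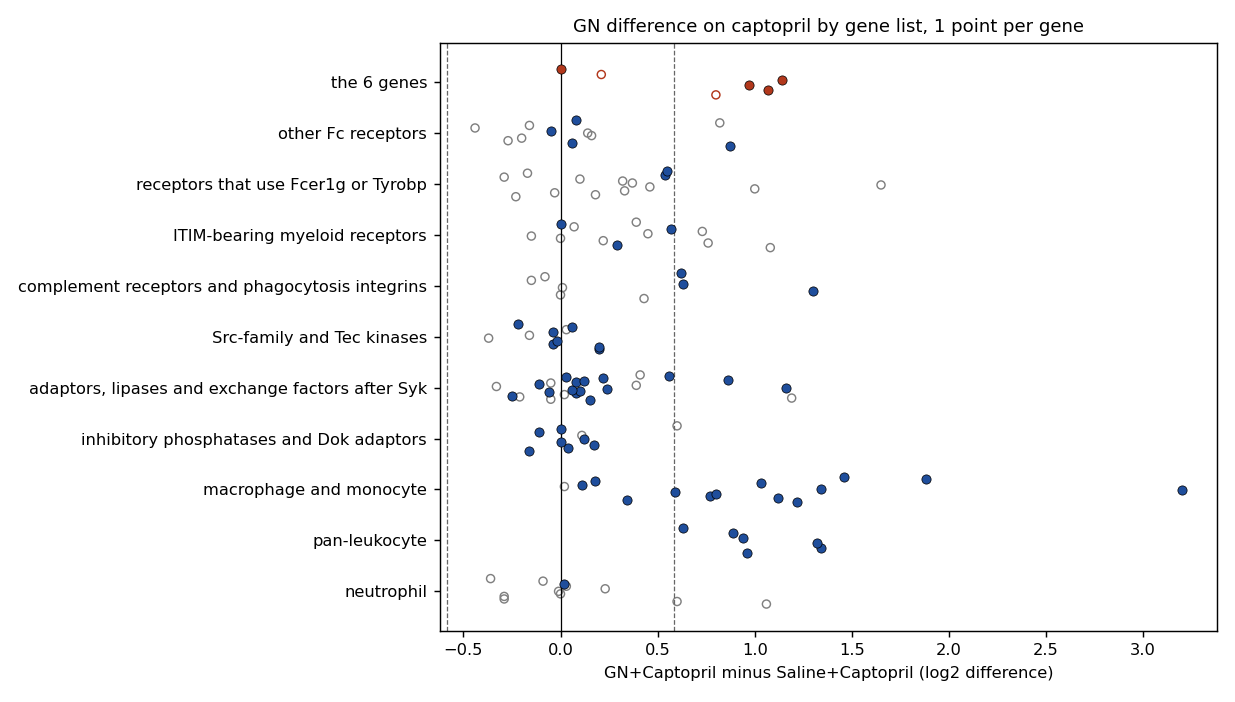
Log2 difference GN+Captopril minus Saline+Captopril, 1 point per gene, for the 6 genes (red), 7 lists of the pathway and 3 lists of cell markers; filled points passed the expression filter, open points did not, and dashed lines mark 1.5-fold. The filled points of the kinase and inhibitory phosphatase lists lie within 1.5-fold, while all 6 pan-leukocyte genes and 10 of 13 filled macrophage points lie to the right of the dashed line.

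Likeness of pattern was measured as the Euclidean distance between log2 values centred on each gene's mean, over 4 arrays. Nearest to the mean profile of Fcgr1, Fcgr3, Fcer1g and Tyrobp among tested genes were Cyp1b1 at 0.09, Cd14, a macrophage co-receptor gene for lipopolysaccharide, at 0.19, Tmsb10 at 0.19, the chemokine gene Ccl9 at 0.21, Ifi27l2a at 0.22 and Emp3 at 0.23. Of the 4 genes themselves, Fcer1g lay at 0.15, Tyrobp at 0.24, Fcgr3 at 0.28 and Fcgr1 at 0.57 from their own mean, Syk lay at 1.12 and Fcgr2b at 1.30. Nearest to Fcgr2b were Emd and Tes at 0.01, Arhgef18 at 0.01, and Lyar, Rpl39 and Slc23a2 at 0.02, all flat genes with GN differences on captopril between −0.01 and 0.01. Many flat genes lie this close, so these names say little beyond flatness.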

How the data were processed

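Whole kidney RNA, 6 µg of total RNA per preparation, was labelled as biotinylated cRNA and hybridised, per the labels' protocols. The values the authors deposited are log2 probe set values for 22690 probe sets per array, the log2 scale being judged from their range; GCOS and RMA are named in the submitters' processing notes, with no version. For background correction, normalisation and build, details were not given in the sources used here. Array medians were 6.93 to 6.99, and values were used as deposited.

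Probe sets were named from the platform annotation, through the Entrez ID with GRCm38.p6 symbols where possible: 20393 had 1 symbol, 691 several and 1606 none. Each gene took the probe set of highest mean, and the 8207 of 12394 genes with a mean of at least 6.27, the 40th percentile over probe sets, were tested. The 6 genes are reported whether or not they passed, and 4 did. A value counted as near background up to a limit of 4.36 to 4.81, which for each array is the 90th percentile over 27 negative controls.

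Differences were counted at 1.5-fold. With 0 residual degrees of freedom no test was made; a fit assuming that GN and captopril add up would leave 1 and was not run. From each list the 3 highest and 3 lowest genes past the filter by mean GN difference are named, with the 6 genes nearest in pattern; others are marked. The members, the lists, the motif and the marker genes were chosen with earlier results of these data known. Lists were for 7 pathway and 11 cell or tissue groups. Alternatives were median centring, quantile normalisation, cyclic loess (limma 3.58.1), the mean of all probe sets, leaving out probe sets of shared kinds, 2-fold, other filters and other baseline arrays, and, after seeing the data, list counts without a filter. Python 3.11.15, pandas 2.3.3 and R 4.3.3 were used.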

Additional observations from a re-analysis of the deposited data

Results flagged for a closer look

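For 3 of the 6 genes the captopril difference had opposite signs in saline and in GN mice, with 1 array per group; the difference was not tested. For Fcgr3 it was 0.04 in saline mice and −0.88 in GN mice, a change of −0.93. For Fcer1g it was 0.21 and −0.59, a change of −0.80, and for Tyrobp 0.14 and −0.65, a change of −0.79. Each saline difference was under 1.5-fold, and each change draws on all 4 arrays, including Saline+Water and the GN+Water-labelled array.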

How the results depend on the processing

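No paired analysis was possible because each group has 1 array and the labels give no replicate numbers. For the median, the counts and the excess over Fcgr2b in the 4 comparisons, 99 recomputed values stayed within 1.5-fold, or 1.5 times for a count, of the main one and 5 did not. Settings that change the choice of probe sets cannot move the 4 genes that have 1 probe set. Over all alternatives the median of the 6 genes was 0.79 to 1.41 for GN on water, 0.70 to 0.90 for GN on captopril and −0.50 to −0.48 for captopril in GN. Leaving out the _s_at and _x_at probe sets, which may match several transcripts or genes and whose absence makes 1451941_a_at represent Fcgr2b, gave an excess of 0.62 in GN on water and −0.86 for captopril in saline mice, and 1 gene at least 1.5-fold higher in the latter. At 2-fold, 2 of the 6 were higher in GN on captopril, where 59 of 8207 tested genes were. At that threshold 0 were lower on captopril in GN, where 92 of 8207 were, a count that this share would also give. With arrays centred on their medians 2 in place of 3 were lower there, since Fcer1g lies near the threshold. The median of other Fc receptors in GN on water, 0.73 over 4 genes, was −0.34 without a filter and −1.27 when the filter stood at the 60th percentile, settings that test other genes of the list. Of the list values a further 27 moved beyond these tolerances, most of them counts at 2-fold. Low signal limits Fcgr1, Syk and most receptors that use Fcer1g or Tyrobp, which lay under the filter, and the number of arrays limits every value.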

Other observations

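Several genes of the same pathway lay under the expression filter yet differed between GN and saline arrays; they were chosen after their values were seen. Clec4n, which encodes the fungal pattern receptor dectin-2, a partner of the Fcer1g chain, was at 4.99 and 4.85 on the saline arrays, 7.51 on the GN+Water-labelled array and 6.51 on GN+Captopril, 3.15-fold higher in GN on captopril. Clec4e, another Fcer1g partner, was at 4.31 and 4.06 on the saline arrays, where it lay near background, 5.51 on the GN+Water-labelled array and 5.06 on GN+Captopril. Lcp2, the SLP-76 adaptor gene below Syk, was 2.28-fold higher in GN on captopril and 2.02-fold on water, and Pirb, an ITIM-bearing receptor gene, 2.11-fold and 1.6-fold. Fcrls, a macrophage gene of the Fc receptor-like family, was at 5.61 and 5.50 on the saline arrays, 7.35 on the GN+Water-labelled array and 6.32 on GN+Captopril. In contrast Trem2, a receptor that signals through Tyrobp, was highest on Saline+Water at 6.27 and between 5.50 and 5.81 elsewhere, and Itgax, a marker of dendritic cells and some macrophages, stayed between 5.51 and 5.71. Each has 1 array per group and no error.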
